A study of Mus musculus with 12 samples.

Results

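The genes described here encode 9 transcription factors that set or mark the identity of microglia, the resident macrophages of the brain: Sall1, Spi1, Irf8, Maf, Mef2a, Mef2c, Runx1, Smad3 and Bhlhe41. They were chosen by name, as known factors of microglial identity, from a table of 55421 genes. All 9 were in the table and were among the 18842 genes that passed the filter on low counts. The study sorted microglia from the brains of mice aged 35 to 40 days and cultured them for 6 h under oxygen-glucose deprivation (OGD), which imitates ischaemia in a dish by withholding oxygen and sugar. RNA was taken either at the end of OGD or once 24 h of recovery had followed. The control genotype was Cx3cr1EGFP, a green fluorescent reporter at a microglial receptor gene (WT below). Knockout mice carried Slc2a5-/-::Cx3cr1EGFP, the same reporter with loss of Slc2a5, the gene of the fructose transporter GLUT5 (KO below). The reporter was thus shared by every group, and no group without OGD was analysed here. The 4 groups, called WT-OGD and KO-OGD before recovery and WT-recovery and KO-recovery after it, held 3 libraries each, and all mice were labelled male. Whether replicates were separate animals or cultures was not labelled, so p-values measure only the spread between these libraries, which may be technical. WT-recovery replicate 1 had a title that named recovery and a treatment field that named OGD without recovery. It was grouped by its title.

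Microglia arise from yolk sac progenitors, and their development needs PU.1, the product of Spi1, together with IRF8 and RUNX1. In the brain, transforming growth factor beta (TGF-beta) signals through SMAD3 and keeps up SALL1, a repressor that among macrophages is largely confined to microglia. MEF2 factors, MAF and BHLHE41 act on enhancers of the mature cell. Part of the identity programme, though not every factor in it, is known to fade when microglia are taken into culture.

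To show the promoter context of the genes the results turn on, 6 upstream stretches are printed, for 3 genes that fell during recovery (Sall1, Smad3, Bhlhe41) and for 3 that were higher in KO after recovery (Irf8, Mef2c, Runx1). They come from RefSeq promoters on build GRCm38.p6, which held 13 start sites of 7 of the 9 genes, without Spi1 and Maf. The stretches run 5′ to 3′ on the gene's strand and end before the first annotated exon, except that of Runx1. That of Runx1 is a window of 30 bases, before the RefSeq start but partly inside the annotated gene. Capitals mark a match to one of the motifs searched. The positions are chr8:89044163-89044412 (minus strand) for Sall1, chr9:63757995-63758244 (minus) for Smad3, chr6:145865559-145865670 (minus) for Bhlhe41, chr8:120736108-120736357 (plus) for Irf8, chr13:83503784-83504033 (plus) for Mef2c and chr16:92826128-92826157 (minus) for Runx1.
Sall1: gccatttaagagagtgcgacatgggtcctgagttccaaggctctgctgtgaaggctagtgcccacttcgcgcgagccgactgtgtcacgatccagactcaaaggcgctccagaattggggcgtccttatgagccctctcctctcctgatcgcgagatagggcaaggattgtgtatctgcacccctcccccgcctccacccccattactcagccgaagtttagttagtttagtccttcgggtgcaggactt
Smad3: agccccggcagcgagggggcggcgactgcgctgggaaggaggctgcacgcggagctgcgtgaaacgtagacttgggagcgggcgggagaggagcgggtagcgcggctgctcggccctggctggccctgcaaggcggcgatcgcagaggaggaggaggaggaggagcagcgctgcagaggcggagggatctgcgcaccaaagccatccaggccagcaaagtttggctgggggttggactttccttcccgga
Bhlhe41: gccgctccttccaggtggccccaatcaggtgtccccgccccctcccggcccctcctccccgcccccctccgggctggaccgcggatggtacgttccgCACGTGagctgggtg
Irf8: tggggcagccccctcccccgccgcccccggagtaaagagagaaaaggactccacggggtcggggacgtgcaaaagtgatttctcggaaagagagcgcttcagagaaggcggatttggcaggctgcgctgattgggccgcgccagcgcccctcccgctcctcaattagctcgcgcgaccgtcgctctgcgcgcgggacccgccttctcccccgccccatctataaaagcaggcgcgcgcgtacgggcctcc
Mef2c: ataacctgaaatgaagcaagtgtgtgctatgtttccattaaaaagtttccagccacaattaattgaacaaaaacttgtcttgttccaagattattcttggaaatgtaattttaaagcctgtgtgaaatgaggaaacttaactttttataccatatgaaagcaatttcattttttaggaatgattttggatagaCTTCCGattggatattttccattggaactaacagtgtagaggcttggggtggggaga
Runx1: catcacttaagtCACGTGattggcaagagc
The E-box CACGTG is the kind of site that BHLHE41 itself binds. It was held by 7.15% of all 32851 promoters of 300 bases (250 before and 50 after the start). The E-box lay 153 bases before the RefSeq start of Bhlhe41 and 71 bases before that of Runx1. All distances here are from RefSeq starts. The GENCODE gene spans given below begin further upstream for both genes, and the Runx1 E-box lies inside its span. Mef2c held the short ETS core CGGAAG on its other strand 57 bases before its first start (16.85% of all promoters), and the PU.1 motif GAGGAAG before another start. Mef2a, not printed, held GAGGAAG 114 and 103 bases before its start (13.63% of all promoters) and the MEF2 motif (3.69%) by its start. Runx1 held the RUNX motif TGTGGT on its other strand 28 and 36 bases after the start (16.76%). A core of the interferon response motif (3.44% of all promoters) and one of the MAF motif (1.41%) were in none of the 13 windows, including that of Irf8. Both strands were searched, motifs did not overlap each other in these windows, and a match is a description of letters, not a bound site.

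Library totals ran from 9885259 to 45347118 counts, with the recovery libraries the shallower ones. The mitochondrial share of counts was 4.20% to 5.75% in OGD libraries, 7.35% to 18.4% in WT-recovery and 4.72% to 10.5% in KO-recovery. Slc2a5 summed to 143 counts in WT-OGD, 38 in KO-OGD, 3 in WT-recovery and 1 in KO-recovery, so it checked the genotype labels after OGD but could not do so after recovery. Xist, the RNA of the inactive X chromosome in female cells, summed to 19295 counts in WT-OGD, 26194 in KO-OGD, 3 in WT-recovery and 17068 in KO-recovery. Counts of at least 4101 in every library of WT-OGD, KO-OGD and KO-recovery go against the male label, whereas WT-recovery libraries held at most 3. Genotype after recovery, recovery in WT and the difference of the recovery changes between genotypes all use the WT-recovery libraries, and therefore cannot be told apart from this difference between the libraries. None of the 9 genes is on a sex chromosome.

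The labelled cell type was checked against its markers. The macrophage gene Csf1r, the receptor of the survival factor CSF1, was abundant, at 651 to 921 CPM as group means (CPM are counts scaled to library size). P2ry12, a purine receptor of resting microglia, was at 3.30 to 11.1 CPM. Tmem119, a microglial surface gene, was at 0.118 to 2.22 CPM, and Siglech, a microglial lectin, had at most 3 counts in any library. Siglech, Crybb1 and Ecscr stayed below the filter, so 17 of 20 microglia identity genes were tested. Mrc1, the mannose receptor of border macrophages, had group means of 749 to 936 CPM and made up most of the sum of its list of 10 genes, of which Lyve1 stayed below 1 CPM and Cd209f was at 0 counts in every library. In bulk RNA, fewer cells of a type and less RNA per cell cannot be told apart.

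How reads were counted bears on these genes. Of 668 genes with at least 500 counts that lay wholly inside another gene's span without sharing an exon, 0 had more counts than the surrounding gene in total, although 429 were on the opposite strand. The deposited counts thus behave as if reads were counted over whole gene spans, introns included, on either strand and for each gene they touch. Sall1, Spi1, Mef2c and Smad3 overlap no other annotated gene. Mef2a overlaps Lysmd4 on the opposite strand, and Lysmd4 had 100.2% to 109% of the counts of Mef2a in each library, so Mef2a values cannot be told apart from reads of Lysmd4. Gm43909 inside Bhlhe41 had 11.7% to 29.9% of its counts, Gm15655 inside Maf 6.44% to 28.7%, and Gm26626 inside Runx1 2.86% to 9.44%. With these taken off, every call reported below for Bhlhe41, Maf and Runx1 was made again, with log2 fold changes of recovery in WT of -1.60, 1.13 and 0.46. Irf8 lies inside the span of the predicted gene Gm20388, and any reads of Gm20388 itself in Irf8 cannot be told apart.

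Per kilobase of exon, Spi1 was the most abundant, with a median over 12 libraries of 84.5 CPM per kb. Bhlhe41 followed at 34.8, Irf8 at 12.8, Maf at 11.1, Mef2a at 8.57, Runx1 at 6.83, Sall1 at 2.69, Mef2c at 1.52 and Smad3 at 1.48. Per kilobase of the whole gene span the order changed, and Bhlhe41 led with 32.0 CPM per kb against 6.83 for Spi1. Levels below are CPM and compare libraries within 1 gene.

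**Figure D1:**
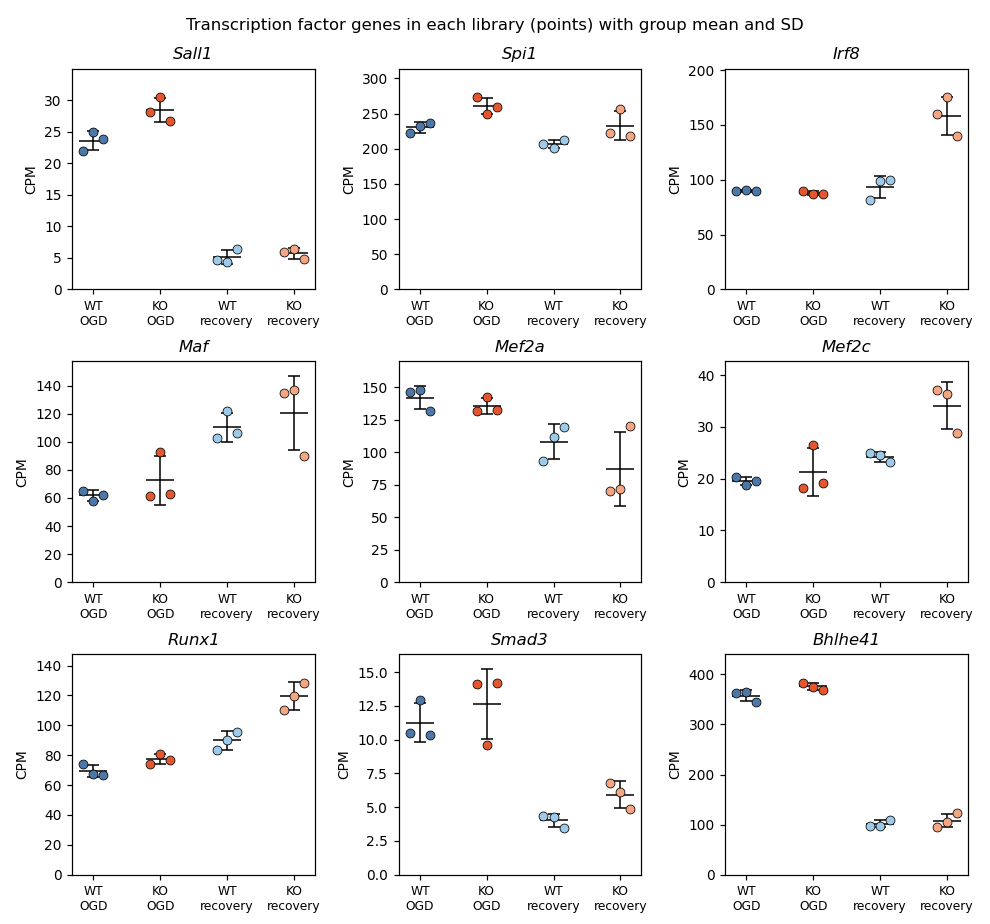
CPM of each of the 9 genes (y axis, from 0, a scale of its own per gene) in the 3 libraries of each of 4 groups (x axis); points are libraries, the long bar is the group mean and whiskers are 1 SD. Sall1, Smad3 and Bhlhe41 are low in all 6 recovery libraries, and Irf8 is high in the KO-recovery libraries, at 140 to 175 CPM.

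During recovery the factors moved apart. In both genotypes Sall1, Bhlhe41 and Smad3 fell steeply, Spi1 kept within 0.17 log2 units of its OGD level without passing the test, and Maf and Runx1 rose. In WT, 5 of 9 genes passed the test (2 higher, 3 lower), beside 56.8% of all genes tested (26.9% higher, 29.9% lower). In KO, 8 of 9 passed (4 higher, 4 lower), beside 59% of all genes (29.3% higher, 29.6% lower). A gene passed at an adjusted p below 0.05 (edgeR's quasi-likelihood test, Benjamini-Hochberg over all genes). The median log2 fold change of the 9 genes was -0.15 in WT and -0.17 in KO, against -0.03 and 0.00023 over all genes.

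Sall1 (chromosome 8, 89027235 to 89044162, GRCm38), the zinc finger repressor of microglial identity, was at 22.0, 24.9 and 23.8 CPM in WT-OGD replicates 1, 2 and 3. It was at 4.68, 4.39 and 6.36 CPM in WT-recovery, at 28.1, 30.4 and 26.7 CPM in KO-OGD, and at 6.00, 6.37 and 4.77 CPM in KO-recovery. Every recovery library lay far below every OGD library, and within recovery the genotypes overlapped. Recovery and OGD libraries were likewise apart for 67.1% of all genes in WT and 61.2% in KO. The log2 fold change of recovery was -2.19 (SE 0.14, adjusted p = 7.36e-09) in WT, which left 0.219 of the OGD level, and -2.32 (SE 0.13, adjusted p = 1.87e-09) in KO. The size of the change was larger than that of Sall1 for only 7.38% of all genes tested in WT and 6.60% in KO.

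Smad3 (chromosome 9, 63646767 to 63757994) carries the TGF-beta signal into the nucleus. Its levels were 10.5, 12.9 and 10.3 CPM in WT-OGD and 4.34, 4.27 and 3.48 CPM in WT-recovery. They were 14.1, 9.63 and 14.2 CPM in KO-OGD and 6.79, 6.12 and 4.87 CPM in KO-recovery. OGD and recovery libraries did not overlap in either genotype, and KO-OGD replicate 2 was the lowest of the OGD libraries. Recovery changed Smad3 by -1.48 (log2; SE 0.19, adjusted p = 8.35e-06) in WT and -1.10 (SE 0.17, adjusted p = 6.29e-05) in KO.

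Bhlhe41 (chromosome 6, 145858243 to 145865558), a basic helix-loop-helix repressor, was at 363, 365 and 345 CPM in WT-OGD and at 97.0, 98.0 and 109 CPM in WT-recovery. It was at 384, 375 and 369 CPM in KO-OGD and at 96.0, 105 and 123 CPM in KO-recovery. The replicates were tight and the OGD and recovery libraries far apart. In log2 terms the change was -1.82 (SE 0.09, adjusted p = 9.57e-10) in WT and -1.80 (SE 0.09, adjusted p = 7.16e-10) in KO. Bhlhe40, its close relative, fell by 0.55 on the log2 scale in WT and had a value of -0.14 in KO that did not pass.

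Maf (chromosome 8, 115682942 to 115707794), a leucine zipper factor of tissue macrophages, was at 65.2, 58.0 and 62.1 CPM in WT-OGD and at 103, 122 and 106 CPM in WT-recovery. It was at 61.7, 92.7 and 63.0 CPM in KO-OGD and at 135, 137 and 90.1 CPM in KO-recovery. The WT groups stood apart, whereas in KO the high OGD replicate 2 overlapped the low recovery replicate 3. Maf rose by 0.84 on the log2 scale (SE 0.17, adjusted p = 0.00105) in WT and 0.74 (SE 0.17, adjusted p = 0.00240) in KO.

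Runx1 (chromosome 16, 92601466 to 92826149), a lineage factor of early haematopoiesis, was at 74.2, 67.2 and 66.7 CPM in WT-OGD and at 83.5, 90.5 and 95.6 CPM in WT-recovery. In KO it was at 74.0, 80.8 and 76.9 CPM after OGD and at 110, 120 and 129 CPM after recovery. Recovery libraries were above OGD libraries in both genotypes, with KO-recovery the highest group. Runx1 rose by 0.37 on the log2 scale (SE 0.08, adjusted p = 0.00134) in WT and 0.63 (SE 0.08, adjusted p = 1.14e-05) in KO.

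Spi1 (chromosome 2, 91082390 to 91115756), the gene of the master macrophage factor PU.1, had the narrowest range of the 9, as the ratio of highest to lowest library. After OGD it was at 222, 233 and 237 CPM in WT and at 273, 250 and 260 CPM in KO. After recovery it was at 207, 201 and 213 CPM in WT and at 223, 256 and 219 CPM in KO. The whole range ran from 201 to 273 CPM, and KO libraries lay above WT libraries at each time. Its log2 fold change of recovery was -0.15 (SE 0.08, adjusted p = 0.113) in WT and -0.17 (SE 0.08, adjusted p = 0.0839) in KO, and neither passed. Without KO-recovery replicate 2 the KO value was -0.26 and passed (adjusted p = 0.0130).

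Mef2a (chromosome 7, 67231163 to 67372858) and Mef2c (chromosome 13, 83504034 to 83667080) encode 2 related factors of the MADS-box class. Mef2c was at 20.2, 18.9 and 19.5 CPM in WT-OGD, 25.0, 24.5 and 23.1 CPM in WT-recovery, 18.1, 26.5 and 19.2 CPM in KO-OGD and 37.1, 36.4 and 28.8 CPM in KO-recovery. Recovery libraries exceeded OGD libraries in both genotypes. Mef2c changed by 0.68 on the log2 scale (SE 0.13, adjusted p = 3.71e-04) in KO and 0.31 (SE 0.13, adjusted p = 0.0634) in WT, where it did not pass. Mef2a, counted together with Lysmd4, had a log2 fold change of -0.63 (SE 0.17, adjusted p = 0.00586) in KO and -0.39 (SE 0.17, adjusted p = 0.0626) in WT. The WT values of both genes passed in some other settings, with adjusted p down to 7.89e-05 for Mef2a and 0.00253 for Mef2c.

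**Figure D2:**
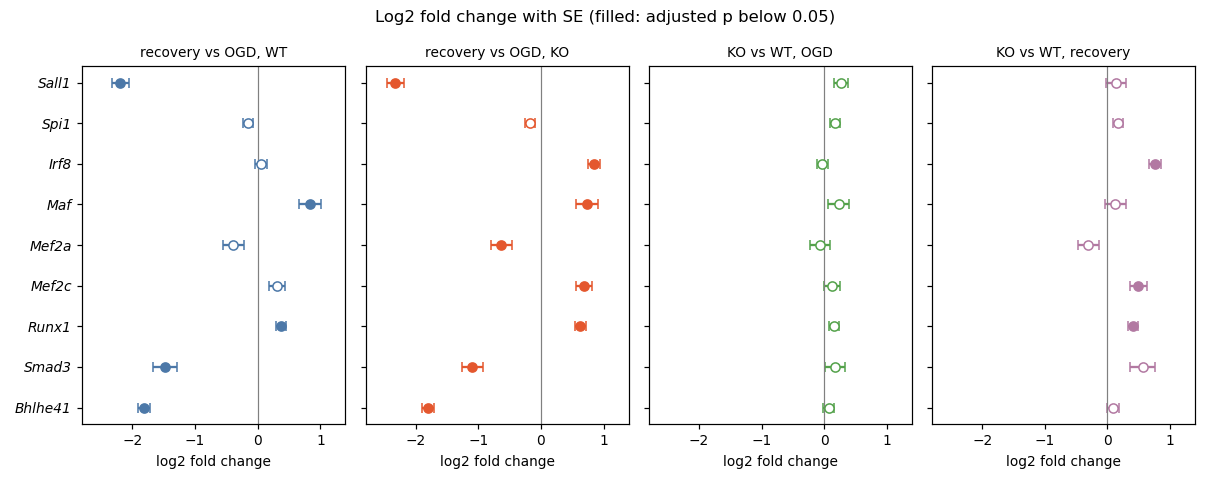
Log2 fold change (x axis) of each of the 9 genes (rows) in 4 comparisons (panels), with bars of 1 SE; filled points passed at an adjusted p below 0.05. Sall1, Smad3 and Bhlhe41 lie below -1 in both recovery panels, no point is filled in the panel of KO against WT after OGD, and Irf8, Mef2c and Runx1 are filled in that after recovery.

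Directly after OGD, loss of Slc2a5 left the 9 genes within 0.27 log2 units of WT. None passed the test, beside 7.49% of all genes tested (0.966% higher, 6.52% lower), and 2 had an unadjusted p below 0.05. These were Sall1 with a log2 fold change of 0.27 (SE 0.11, adjusted p = 0.217) and Spi1 with 0.18 (SE 0.08, adjusted p = 0.244). For both, all 3 KO libraries lay above all 3 WT libraries, which held for 30.4% of all genes in one direction or the other. DESeq2, run as an alternative, called 1 of the 9, Spi1 (log2 fold change 0.22, adjusted p = 0.0459). The median of the 9 genes was 0.15, against -0.01 over all genes.

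After recovery, 3 of the 9 genes were higher in KO and 0 were lower, beside 10.1% of all genes higher and 12% lower (22.2% in either direction). Irf8 (chromosome 8, 120736358 to 120756694), an interferon regulatory factor that partners PU.1, showed the largest difference. Its levels were 81.6, 99.0 and 99.8 CPM in WT-recovery replicates 1, 2 and 3 and 160, 175 and 140 CPM in those of KO-recovery. After OGD they had been 89.4, 90.9 and 89.7 CPM in WT and 90.1, 87.3 and 86.9 CPM in KO. The 9 libraries of the other 3 groups thus spanned 81.6 to 99.8 CPM, and all 3 KO-recovery libraries lay above them. The log2 fold change of KO against WT after recovery was 0.76 (SE 0.09, adjusted p = 6.47e-05), a ratio of 1.69.

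Runx1 was higher in KO after recovery by 0.41 (SE 0.08, adjusted p = 0.00290) and Mef2c by 0.49 (SE 0.14, adjusted p = 0.0167), with no overlap between the genotypes for either gene, as for 33.5% of all genes. The Mef2c call was not robust to single libraries. It was lost without WT-recovery replicate 2 (adjusted p = 0.0581) or 3 (0.0688) and without KO-recovery replicate 1 (0.0767) or 2 (0.0535). As an alternative, the mean log2 CPM of the tested astrocyte markers was added to the edgeR model as a covariate. With it the log2 fold change was 0.41 (adjusted p = 0.368) for Mef2c, 0.13 (adjusted p = 0.648) for Runx1 and 0.84 (adjusted p = 0.0221) for Irf8. Summed astrocyte markers were lower in every KO than in every WT library at each time. The covariate therefore takes up part of the genotype difference, and the 2 cannot be told apart.

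The remaining genes did not pass after recovery. Smad3 had a log2 fold change of 0.56 (SE 0.20, adjusted p = 0.0585), with all 3 KO libraries above WT. It passed without KO-OGD replicate 2 (adjusted p = 0.0214) or KO-recovery replicate 3 (0.0231). Mef2a had -0.31 (SE 0.17, adjusted p = 0.222), and the KO libraries were at 70.3, 71.4 and 120 CPM against 93.0, 111 and 119 CPM in WT. Replicate 3 of KO-recovery stood apart from its group, and without it the value was -0.61 (adjusted p = 4.27e-04). Sall1, Spi1, Maf and Bhlhe41 had values of 0.14, 0.17, 0.13 and 0.09.

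The recovery change itself differed between genotypes for 1 of the 9 genes, beside 5.25% of all genes tested (2.89% higher, 2.36% lower). This was Irf8, whose log2 fold change of recovery was 0.06 (SE 0.09, adjusted p = 0.617) in WT and 0.84 (SE 0.09, adjusted p = 1.67e-06) in KO. The difference was 0.79 (SE 0.13, adjusted p = 0.00332), and it passed without each library in turn (0.69 to 0.86). For Runx1 the difference was 0.25 (SE 0.12, adjusted p = 0.235), for Mef2c 0.38 (SE 0.19, adjusted p = 0.274) and for Smad3 0.39 (SE 0.26, adjusted p = 0.424). Mef2c passed without KO-OGD replicate 2 (0.56, adjusted p = 0.0411) and Mef2a without KO-recovery replicate 3 (-0.55, adjusted p = 0.0162). The genotype and recovery comparisons share libraries, so a high KO-recovery group raises the value of Irf8 in 3 of them.

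Among relatives of the 9 factors, 27 of 29 were tested. In WT recovery 12 rose and 9 fell, beside 26.9% and 29.9% of all genes tested. In KO recovery 11 rose and 12 fell, beside 29.3% and 29.6% of all genes. Of 8 interferon regulatory factors tested beside Irf8, 6 rose in WT and 7 in KO, beside the same 26.9% and 29.3%. Irf4, a factor of lymphoid and alternatively activated myeloid cells, rose from 2.49 ± 0.34 to 10.8 ± 0.81 CPM in WT (SD, n = 3; log2 fold change 2.12) and by 2.44 in KO. Irf1, an interferon-induced activator, rose by 1.42 in WT and 1.87 in KO. Irf7, the driver of type I interferon production, rose by 1.80 in WT and 3.63 in KO, although it overlaps Phrf1 and is uncertain. Maff and Mafk, genes of small MAF proteins, which lack an activation domain, fell by 1.71 and 1.11 on the log2 scale in WT. In KO they fell by 1.84 and 1.24. Smad4, the shared partner of SMAD3, fell by 0.84 in WT and 0.70 in KO, and Mef2d fell by 0.67 in WT and 0.66 in KO.

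Between genotypes, 0 relatives were higher and 1 was lower after OGD, beside 0.966% and 6.52% of all genes. After recovery 3 were higher and 6 lower, beside 10.1% and 12% of all genes. Irf7 was at 15.7 ± 7.7 CPM in WT-recovery and 64.8 ± 16.9 CPM in KO-recovery (SD, n = 3; log2 fold change 2.02, adjusted p = 0.00190). Irf1 (0.49) and Irf2 (0.26) were higher as well. Among those lower in KO were Spic, an ETS factor of iron-recycling macrophages (-2.52), and Sall3 (-1.62). For Spic and Sall3 the difference of the recovery changes also passed, at -2.73 and -1.54.

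**Figure D3:**
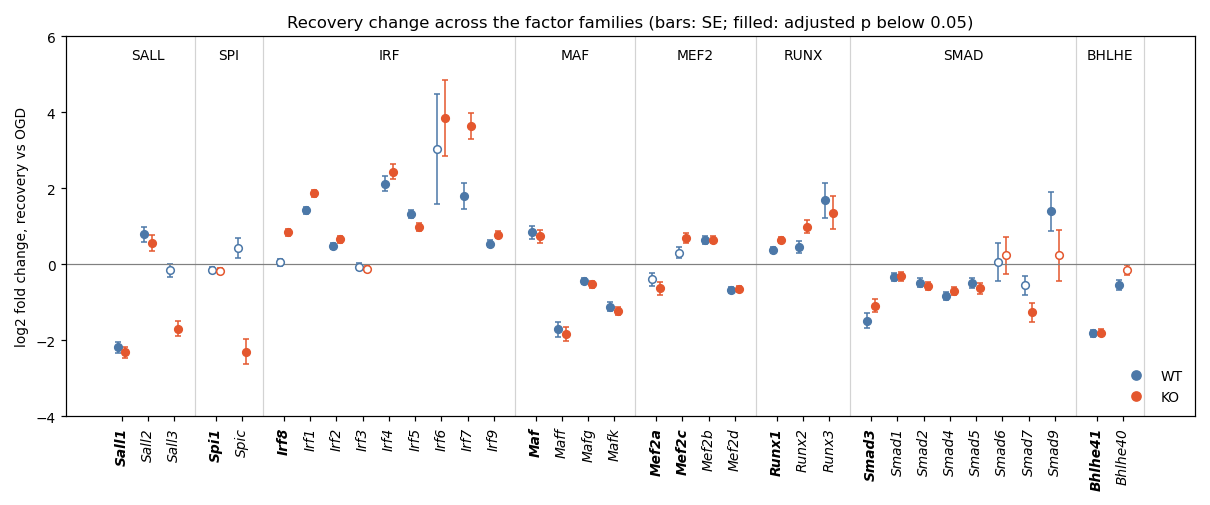
Log2 fold change of recovery against OGD (y axis) for the 9 factors (bold) and tested relatives, grouped by family (x axis), in WT (blue) and KO (red); bars are 1 SE and filled points passed at an adjusted p below 0.05. Sall1 lies at -2.19 and -2.32 while Sall2 is above 0, and Spic and Sall3 differ between WT and KO.

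Of 27 upstream signalling genes, 8 were higher and 8 lower in WT recovery, and 6 higher and 10 lower in KO recovery. All genes passed in either direction at 56.8% in WT and 59% in KO, so the list was near the background in both. Tgfbr1, the kinase receptor of TGF-beta, fell from 176 ± 11.6 to 84.2 ± 5.1 CPM in WT (SD, n = 3; log2 fold change -1.06) and by 1.29 on the log2 scale in KO. Nrros, which presents latent TGF-beta on microglia, rose by 1.58 in WT and 1.93 in KO, and the related Lrrc32 rose by 3.76 and 2.98 from 0.867 and 2.35 CPM. Smad7, the feedback inhibitor of the pathway, fell by 1.26 in KO. In WT its group means were 7.27 CPM after OGD and 4.91 CPM after recovery. After recovery 3 of the 27 were higher in KO and 6 lower (all genes 10.1% and 12%), among the latter Pmepa1 (-0.93), which TGF-beta induces in many cells. After OGD 1 was higher and 4 lower (all genes 0.966% and 6.52%), Pmepa1 again among the lower (-0.55). With recovery, however, group means of Pmepa1 rose in both genotypes, from 7.76 to 14.1 CPM in WT and from 5.29 to 7.47 CPM in KO.

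Of 25 partner factors, 9 rose and 9 fell in WT recovery, beside 26.9% and 29.9% of all genes, and 11 rose and 8 fell in KO recovery, beside 29.3% and 29.6%. Batf3, a leucine zipper partner of IRF8, rose by 1.71 in WT and 1.96 in KO. The AP-1 gene Junb fell by 2.29 and 2.91, and Cebpb by 2.11 and 3.10, although both share their spans with other genes and are uncertain. Cbfb, the obligate partner of RUNX1, was lower in KO after recovery (-0.47), where Runx1 was higher. In that comparison 4 of 25 were higher and 5 lower (all genes 10.1% and 12%), and after OGD 0 were higher and 2 lower (all genes 0.966% and 6.52%).

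Of the 17 tested genes that mark microglia, 8 rose and 5 fell in WT recovery, beside 26.9% and 29.9% of all genes, and 6 rose and 6 fell in KO recovery, beside 29.3% and 29.6%. Tmem119 rose by 4.12 in WT and 3.19 in KO from 0.118 and 0.198 CPM, and Fcrls, an Fc receptor-like gene, by 1.42 and 2.92. Between genotypes after recovery, Adgrg1, an adhesion receptor, was lower in KO (-2.35) and Fcrls higher (1.01), and in all 2 of 17 were higher and 4 lower (all genes 10.1% and 12%). After OGD 0 were higher and 6 lower (all genes 0.966% and 6.52%), Adgrg1 among them (-1.40).

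Among 29 tested factors of other macrophages, 11 rose and 10 fell in WT recovery, beside 26.9% and 29.9% of all genes, and 9 rose and 11 fell in KO recovery, beside 29.3% and 29.6%. Rara, a retinoic acid receptor, rose by 1.73 and 2.25, and Egr1, an immediate early factor, fell by 2.48 and 2.02. After recovery (all genes 10.1% higher and 12% lower) 3 were higher in KO, led by Mitf (0.82), a factor of lysosome and pigment genes, and 3 were lower, led by Id3 (-2.29), an inhibitor of helix-loop-helix factors. After OGD 0 were higher and 2 lower (all genes 0.966% and 6.52%).

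Markers of other cells moved with the same comparisons. The summed monocyte markers were at 65.2 to 192 CPM in OGD libraries, 540 to 878 in WT-recovery and 1145 to 1349 in KO-recovery. Most of this was Fn1, while the defining monocyte genes Ly6c2 and Plac8 stayed below 1 CPM in every library. The border macrophage sum was 877 to 1009 CPM after OGD, 1111 to 1481 in WT-recovery and 1659 to 1807 in KO-recovery, with Lyve1 and Cd209f below 1 CPM. Its most abundant gene, Mrc1, had means of 897 CPM in WT-recovery and 936 in KO-recovery, and Ms4a7 86.3 and 86.0. Means differed more for Pf4 (80.0 in WT-recovery and 314 in KO-recovery), Siglec1 (89.1 and 169), Clec12a (127 and 188) and F13a1 (2.28 and 11.9). The neutrophil sum was 19.8 to 31.1 CPM after OGD, 376 to 523 in WT-recovery and 685 to 860 in KO-recovery, nearly all Mmp8, with 6 of 10 markers below 1 CPM. The astrocyte sum was 129 to 186 CPM in WT-OGD and 55.0 to 76.3 in KO-OGD, then 168 to 192 in WT-recovery and 81.8 to 121 in KO-recovery. The neuron sum was 8.12 to 36.7 CPM after OGD, 80.6 to 96.1 in WT-recovery and 17.1 to 30.0 in KO-recovery, led by Rtn1, with 3 of 12 markers below 1 CPM. The oligodendrocyte sum was 155 to 164 CPM after OGD, 327 to 372 in WT-recovery and 263 to 318 in KO-recovery. It was led by Cnp, with means of 123 CPM in WT-recovery and 125 in KO-recovery. Each of its 12 markers reached 1 CPM in some library, but Sox10, for example, stayed below it in every OGD library. Sox10 was then at 7.03 to 10.4 CPM in WT-recovery and 0.397 to 0.653 in KO-recovery, while Mag overlapped between them (12.8 to 18.7 and 16.1 to 20.8). The endothelial and mural sum was 16.3 to 49.99 CPM after OGD and 82.0 to 142 after recovery, with 5 of 12 markers below 1 CPM. Muscle and connective tissue markers set KO-recovery replicates 1 and 3 apart, at 538 and 462 CPM against 36.6 in replicate 2 and 75.2 to 157 in the other groups. Without both, which left 1 KO-recovery library that was assumed to vary like the other groups, 5 of the 9 factors were called after recovery. Irf8 (0.90), Runx1 and Mef2c were still higher in KO, Spi1 was higher as well (0.30, adjusted p = 0.0368, edgeR) and Mef2a was lower (-0.60, adjusted p = 0.00723, edgeR). The difference of the recovery changes of Irf8 still passed. Lymphocyte markers summed to at most 3.27 CPM in any library.

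Dendritic cells also express Irf8. The sum of their 9 markers was 112 to 136 CPM after OGD, 116 to 157 in WT-recovery and 142 to 152 in KO-recovery, most of it Bst2 and Ccr9, with Flt3, Cd209a and Siglech below 1 CPM. Clec9a, a receptor of cross-presenting dendritic cells, rose in both genotypes, from 7.24 ± 0.32 to 16.5 ± 4.5 CPM in WT and from 6.98 ± 0.31 to 21.8 ± 8.1 CPM in KO (SD, n = 3). Its KO-recovery libraries were at 17.2, 17.1 and 31.1 CPM and overlapped those of WT, and the difference did not pass (log2 fold change 0.43, adjusted p = 0.186, edgeR). Itgae, the integrin CD103, was at 5.71 ± 1.2 CPM in WT-recovery and 8.396 ± 1.1 CPM in KO-recovery, with no overlap, and was higher in KO (0.52, adjusted p = 0.0333, edgeR), the direction of Irf8. Xcr1, a chemokine receptor of the same dendritic cells, rose in both genotypes to 0.832 ± 0.14 and 1.01 ± 0.40 CPM and did not pass between them (adjusted p = 0.583, edgeR). The part of these transcripts in the values of the 9 genes was not tested. The astrocyte covariate could not test it, because the astrocyte sums differed between genotypes without overlap at each time.

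**Figure D4:**
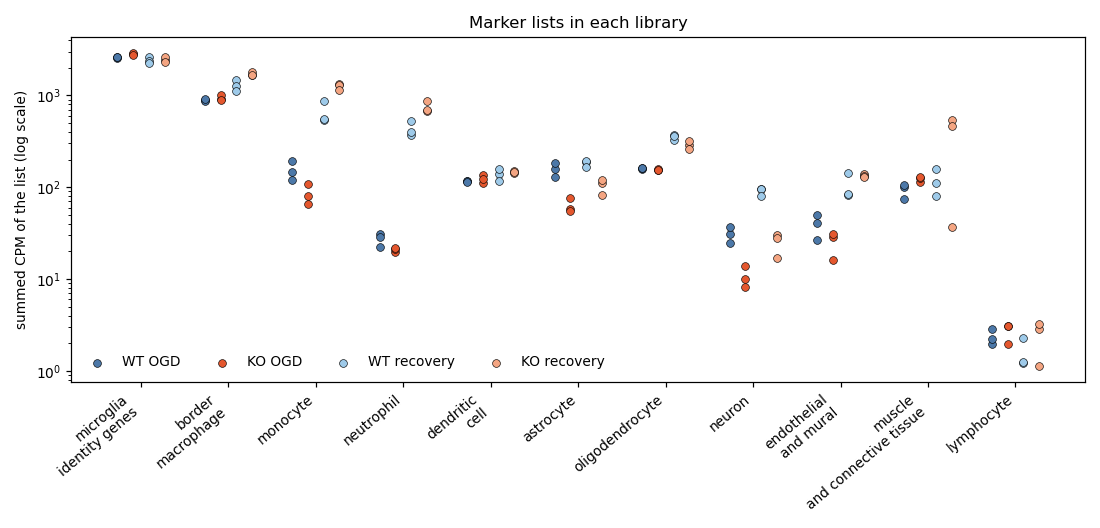
Summed CPM of each marker list (y axis, log scale) in the 3 libraries of each of 4 groups (colours) for 11 cell types (x axis). The monocyte list lies highest in KO-recovery, at 1145 to 1349 CPM, and the astrocyte list is lower in KO than in WT libraries at both times.

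The genes most like each factor over the 12 libraries were found among 8690 protein-coding genes of at least 10 CPM on average, by Pearson's r of log2 CPM, as a description over libraries that share their groups. The closest to Sall1 was Phf3 (r = 0.995), which was at 99.7 ± 4.6 CPM in WT-OGD and 46.7 ± 4.4 CPM in WT-recovery (SD, n = 3). Bhlhe41 was closest to Mthfd2 (r = 0.998), a mitochondrial folate enzyme, and Smad3 to Rasa4 (r = 0.989). Irf8 was closest to Samd9l (r = 0.965), an interferon-inducible gene, which was at 46.2 ± 6.8 CPM in WT-recovery and 79.8 ± 5.8 CPM in KO-recovery. Maf was closest to Scamp2 (r = 0.976), Runx1 to Snx24 (r = 0.985), Mef2c to Srgap2 (r = 0.975) and Spi1 to Thg1l (r = 0.958). Mef2a was closest to Lysmd4 (r = 0.999), with which it shares reads. Among the 9 themselves, Sall1 and Bhlhe41 were the most alike (r = 0.98), but with group means taken off their r was -0.08. Within groups the largest r was that of Maf and Mef2c (0.93), which were high together in KO-OGD replicate 2 and low together in KO-recovery replicate 3.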

How the data were processed

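For each of 12 libraries the authors deposited raw counts of reads by gene, as whole numbers without normalization. HISAT2, featureCounts and build GRCm38 are named in the submitters' processing notes, while versions and counting options are not given in the sources used here. Symbols and positions came from GENCODE M21 (GRCm38). The members and the gene lists were chosen with earlier results of these data known. Counts were analysed in R 4.3.3 with edgeR 4.0.16: filterByExpr kept 18842 genes, TMM scaled the libraries, and a robust quasi-likelihood model with 1 mean per group was fitted to all libraries (common biological coefficient of variation 0.119) and tested on simulated data. p-values were adjusted by Benjamini-Hochberg over all genes, and a gene passed below 0.05. CPM uses TMM-scaled totals, and an SE is the log2 fold change over the root of F. Every replicate pair differed by more than sampling noise (chi-square per degree of freedom 6.66 to 60.2). All 9 members are named; from each other list up to 4 called genes of largest change per direction could be named, and others such as Bhlhe40 were chosen after their values were seen. Some listed genes are counted but not reported by name here. Alternatives were other scalings, no filter, DESeq2 1.42.0, a replicate block, equal depth, an astrocyte covariate and libraries left out.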

Additional observations from a re-analysis of the deposited data

Results flagged for a closer look

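The change during recovery differed between genotypes, by the interaction term of edgeR's quasi-likelihood model at an adjusted p below 0.05, for Irf8 among the 9 factors (0.79 on the log2 scale, KO less WT) and for the listed genes named here. The value was -2.73 for Spic, -1.54 for Sall3, -1.30 for Ets1, -0.99 for Cebpb, -0.67 for Itgb5, 1.50 for Fcrls, 1.09 for Fos, 0.74 for Mitf and 0.53 for Rara. Cebpb shares its span with another gene. All of these values use the WT-recovery libraries, which had 3 Xist counts in all against 17068 to 26194 in the other groups, and cannot be told apart from that difference. Groups of 3 were too small for a test of single outlying libraries.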

How the results depend on the processing

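Each of 45 results (9 genes in 5 comparisons) was recomputed under up to 23 alternatives, 2 of them (leaving out WT-recovery replicate 1 and KO-recovery replicate 2, the richest in mitochondrial counts of their groups, and taking off the counts of nested genes) chosen after seeing the data. Of 1026 values 957 kept direction and side of the threshold, 30 gained a call, 7 lost one and 32 changed sign, 0 of these in a called result. The lost calls were those of Mef2c and Runx1 after recovery given above, and Mef2c also without the mitochondria-rich libraries (0.47, adjusted p = 0.0840).

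All genes called for KO against WT after OGD (1411) became 2148 with no filter, 650 at equal depth, 30 with the astrocyte covariate and 524 to 1742 without single libraries. After recovery (4175) they became 2756 from the compared libraries alone, 913 with the covariate and 2653 to 5279 without single libraries. Of the 9 factors, 1 was called after OGD by DESeq2, and after recovery 5 with no filter, 5 without KO-recovery replicates 1 and 3, and 2 to 5 without single libraries. For the difference of recovery changes, 989 genes became 1980 with no filter, 1517 by DESeq2, 534 at equal depth and 479 to 1770 without single libraries, and 1 factor became 1 to 2.

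The 32 sign changes fell on results that were not called. For KO against WT after OGD they were Irf8 (0.0076 with RLE factors and 0.0076 by DESeq2, 0.068 with the covariate), Mef2a (0.0089 at equal depth), Runx1 (-0.17 with the covariate), Bhlhe41 (-0.28 with it) and Mef2c (-0.048 to 0.22 without single libraries). After recovery they were Maf (-0.017 without the mitochondria-rich libraries) and Bhlhe41 (-0.21 with the covariate, -0.018 to 0.17 without single libraries), and in WT recovery Irf8 (-0.0017 to 0.14). For the difference they were, without KO-recovery replicates 1 and 3, Sall1 0.031, Spi1 0.12, Maf 0.077 and Bhlhe41 -0.027. Spi1 had 0.037 at equal depth, and Bhlhe41 -0.0090 with RLE factors, -0.0092 by DESeq2, -0.025 without the mitochondria-rich libraries and -0.018 without nested genes. Without single libraries Sall1 ran from -0.27 to 0.054, Spi1 from -0.095 to 0.024, Maf from -0.21 to 0.11 and Bhlhe41 from -0.094 to 0.093. The causes were not tested.

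The replicate block used numbers that same-numbered libraries did not bear out as pairs (r of deviations -0.115 to 0.156, against -0.244 to 0.233 for other numbers). With it 657 genes passed the difference of recovery changes, and Mef2a passed in WT recovery (-0.41, adjusted p = 0.0433), with no other call on the 9 factors changed. Recovery libraries were shallower, which limits low genes such as Smad3, with as few as 38 counts.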
